A study of Homo sapiens with 6 samples.

Results

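The mitotic spindle and kinetochore genes are 38 genes that drive a cell from the end of G2 through chromosome segregation to cytokinesis. They were taken from a fixed list of gene symbols, together with every probe that the platform annotation gives to one of them, which came to 58 of the 48803 probes on the array. The cells were IGROV-1, an established line from a human ovarian carcinoma, and their RNA was hybridised to 6 Illumina bead arrays of 1 colour. On 3 arrays the cells had been given CpG-ODN at 10 µM for 24 h, and on 3 they had been given saline, with the time not given in the sources used here. Whether the samples of a group were grown separately is not stated, so the p-values measure the spread between these samples only, and that spread may be technical. The agent was ODN1826, a phosphorothioate oligonucleotide of 20 bases, given below as the study's design states it. Capitals mark its 2 CpG motifs, the kind of sequence that the DNA sensor Toll-like receptor 9 recognises.
ODN1826: tccatgaCGttcctgaCGtt

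Mitotic entry is driven by cyclin-dependent kinase 1 with A- and B-type cyclins, and a spindle of microtubules then attaches to each chromosome at its kinetochore. Until every kinetochore is attached, the spindle checkpoint holds back the anaphase-promoting complex, which afterwards marks cyclin B and securin for destruction. Most of these genes are transcribed mainly in G2 and M phase, so in bulk RNA their levels go with the share of dividing cells. In bulk samples such as these, fewer cells in G2 and M phase and less RNA per such cell cannot be told apart.

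Of 10 epithelial and ovarian carcinoma markers, 7 were detected on all 6 arrays, among them PAX8, EPCAM and the keratins KRT7, KRT8, KRT18 and KRT19. MUC16 was detected on 2 CpG-ODN and 3 saline arrays, WT1 on 2 arrays at most and MSLN on 1. The leukocyte markers PTPRC and CD3E, the fibroblast marker COL3A1 and the endothelial marker CDH5 were detected on 0 arrays. COL1A1 and PDGFRB, also fibroblast markers, were each detected on 1 CpG-ODN array. DCN, another, was detected on 1 CpG-ODN and 2 saline arrays at most. CD14, CD68, PECAM1 and VWF were detected on all 6. The summed normalized intensity of the 3 endothelial markers lay between 519.3 and 676.2 on the CpG-ODN arrays, against 724.7 to 775.3 on the saline arrays, and that of the 4 leukocyte markers with a probe lay between 1038 and 1189, against 903 to 1031. Their part in the values below was not tested. The number of probes detected on an array was 17142 to 18426 with CpG-ODN and 17625 to 18790 with saline. CpG-ODN arrays 1 and 2 stood apart: across the 17950 tested probes the SD of their difference was 0.61 on the log2 scale, where pairs of saline arrays gave 0.30 to 0.33, and CpG-ODN 2 had the lowest upper quartile of non-normalized intensity (186.7, against 207.6 to 221.3 on the other arrays).

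The 38 genes were detected in both groups, and no probe of theirs passed the test. Of their 58 probes 57 were detected on all 6 arrays and tested. The exception was 1 of the 3 probes of NUF2, detected on 1 CpG-ODN and 1 saline array. In limma, 0 of the 57 probes had a Benjamini-Hochberg adjusted p under 0.05, where the share over all 17950 tested probes was 0%, and every member probe had an adjusted p of 1.00. At an unadjusted p under 0.05 there were 2 member probes (3.51%), close to the share over all tested probes of 3.58%. Both were lower in CpG-ODN, where the background share in that direction was 1.88%. In 3 probes, those of BIRC5, NUF2 and TPX2 named below, the 3 CpG-ODN arrays all lay below the 3 saline arrays. In 0 member probes did they all lie above. Over all tested probes 5.03% lay wholly below and 4.32% wholly above, and the 3 members come to a share close to that background.

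**Figure D1:**
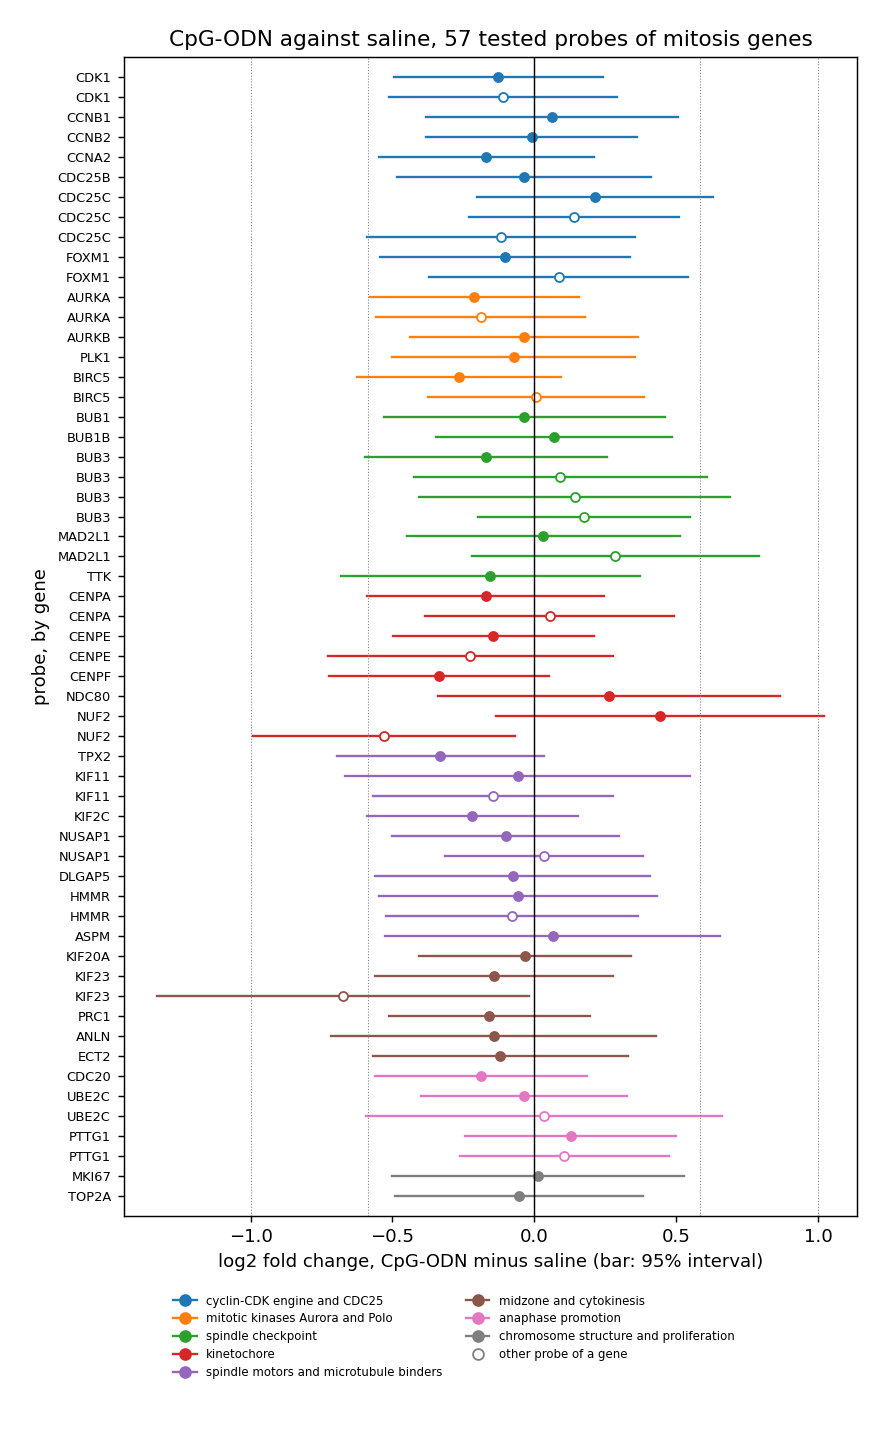
Log2 fold change of CpG-ODN minus saline (x axis) for each of the 57 tested probes (y axis, by gene), over 3 arrays in each group. Points are the estimates of limma, filled for the brightest probe of a gene and open for its other probes, with 95% intervals as bars and dotted lines at 1.5-fold and 2-fold. The intervals of 55 probes lie inside 2-fold, and 2 intervals, of the dimmer probes of NUF2 and KIF23, lie wholly below 0.

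The 95% intervals hold for 1 probe each and rest on the spread between these samples, which may be technical. The 95% interval did not reach 2-fold for 55 of the 57 probes, where the share over all tested probes was 93.6%, and did not reach 1.5-fold for 36, where it was 43%. The 2 that reached beyond 2-fold belonged to the brightest probe of NUF2 and the dimmer probe of KIF23. One member probe, that of KIF23, had a fold change beyond 1.5-fold, where the background share was 1.58%. Without background correction, with the deposited normalized values and with an offset of 50, 0 member probes did.

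With each gene represented by its brightest probe, the median log2 fold change of the 38 genes was −0.075, against −0.0053 over the 11040 genes tested. Of the 38 genes 29 had a lower mean in CpG-ODN and 9 a higher one, where the shares over all genes were 51.2% and 48.8%. The lower means depended on the arrays used: without CpG-ODN 2 the median was 0.0093 and 18 genes were lower. Taken singly, CpG-ODN arrays 1 to 3 had 21, 29 and 27 genes lower, where the shares over all genes were 50.6%, 51% and 50.5%. With arrays set to equal medians in place of equal quantiles, 19 of the 38 genes were lower (41.9% of all genes), and the median was −0.0010, against 0.040 over all genes. That scaling moved the median over all genes upward, and 25 of the 38 genes lay below it. Member probes did not move alike: CDC20 went from −0.19 to −0.01, and a dimmer probe of CDC25C from −0.12 to −0.14. Without CpG-ODN 1 the median was −0.16, with 30 genes lower.

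**Figure D2:**
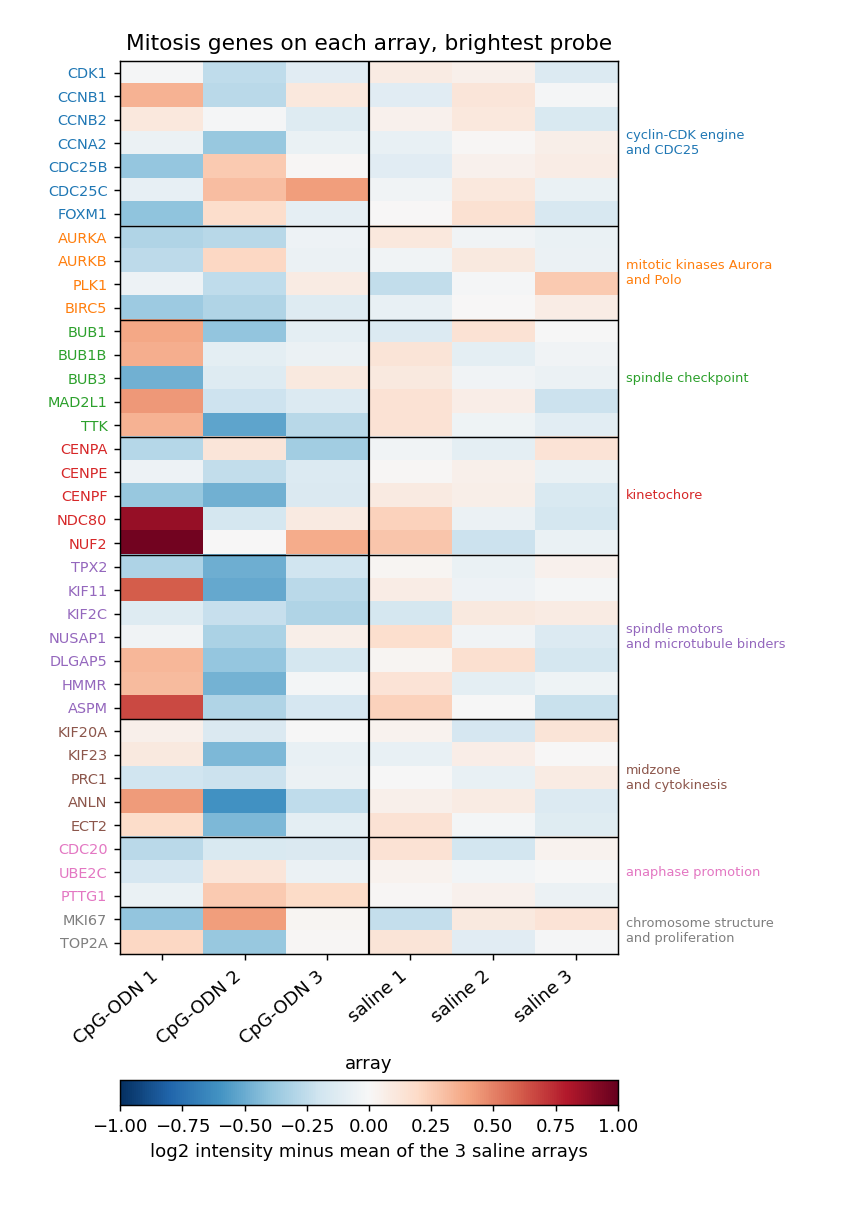
Log2 intensity of the brightest probe of each of the 38 genes minus the mean of its 3 saline arrays (colour scale from −1 to 1), with CpG-ODN arrays 1 to 3 left of saline arrays 1 to 3 and genes grouped by role. CpG-ODN 1 and CpG-ODN 2 show strong colours of opposite sign in many rows, with NUF2 (0.96) and NDC80 (0.87) highest on CpG-ODN 1 and ANLN (−0.61) lowest on CpG-ODN 2, while CpG-ODN 3 and the saline arrays are pale.

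The promoters are shown because a shared regulatory sequence is a feature of many of these genes that the list did not use. A pair of elements is known from promoters of G2 and M phase genes: the cell cycle genes homology region, written TTTGAA or TTCGAA, through which the MuvB complexes with FOXM1 act, and the CCAAT box bound by NF-Y. RefSeq promoters of build GRCh38.p14, which run from 250 bases before to 50 after a transcript's start, were matched for 31 of the 38 genes, in 41 windows. Searched on both strands, TTTGAA or TTCGAA was present in 27 of the 41 windows (65.9%), against 13.7% of 22199 windows of protein-coding genes and 16.4% of all 35116 windows. The CCAAT box was present in 30 windows (73.2%), against 34.7% of the protein-coding ones, and both elements together in 22 (53.7%), against 5.48%. These counts describe letters in a window and not sites in use, and several of the windows belong to 1 gene and overlap. Printed below, with these elements on either strand in capitals, are promoters from both ends of the pattern across arrays, picked after the values were seen: NDC80 and NUF2, highest on CpG-ODN 1; MKI67, highest on CpG-ODN 2; and CENPF and KIF23, low on CpG-ODN 2. In NDC80 the pair of capital elements abut, and in MKI67 a TTTGAA overlaps the ATTGG that is a CCAAT box on the other strand.
NDC80 (chr18:2571307-2571606, plus strand): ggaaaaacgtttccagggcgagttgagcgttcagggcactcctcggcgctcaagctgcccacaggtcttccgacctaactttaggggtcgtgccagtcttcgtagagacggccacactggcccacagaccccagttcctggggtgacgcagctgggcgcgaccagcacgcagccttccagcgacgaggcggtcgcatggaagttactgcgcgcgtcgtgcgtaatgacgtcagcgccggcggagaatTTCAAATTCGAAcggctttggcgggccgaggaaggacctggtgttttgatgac
NUF2 (chr1:163321704-163322003, plus strand): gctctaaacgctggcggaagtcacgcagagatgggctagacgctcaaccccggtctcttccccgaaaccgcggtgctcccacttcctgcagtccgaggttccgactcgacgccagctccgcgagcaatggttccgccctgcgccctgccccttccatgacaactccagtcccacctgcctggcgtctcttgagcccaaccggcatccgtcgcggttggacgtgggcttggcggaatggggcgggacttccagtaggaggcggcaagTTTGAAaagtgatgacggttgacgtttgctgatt
MKI67 (chr10:128126374-128126673, minus strand): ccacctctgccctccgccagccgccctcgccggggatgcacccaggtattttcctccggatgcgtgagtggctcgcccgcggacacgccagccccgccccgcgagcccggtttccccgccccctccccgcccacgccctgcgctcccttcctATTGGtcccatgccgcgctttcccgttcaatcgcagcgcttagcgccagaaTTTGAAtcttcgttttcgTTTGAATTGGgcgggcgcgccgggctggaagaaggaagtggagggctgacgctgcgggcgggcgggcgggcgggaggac
CENPF (chr1:214602945-214603244, plus strand): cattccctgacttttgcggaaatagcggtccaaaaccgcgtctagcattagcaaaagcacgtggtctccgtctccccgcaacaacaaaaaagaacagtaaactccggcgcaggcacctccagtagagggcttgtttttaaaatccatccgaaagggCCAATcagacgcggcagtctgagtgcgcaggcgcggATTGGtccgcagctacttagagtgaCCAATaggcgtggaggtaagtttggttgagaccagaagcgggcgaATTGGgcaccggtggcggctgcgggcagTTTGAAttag
KIF23 (chr15:69414099-69414398, plus strand): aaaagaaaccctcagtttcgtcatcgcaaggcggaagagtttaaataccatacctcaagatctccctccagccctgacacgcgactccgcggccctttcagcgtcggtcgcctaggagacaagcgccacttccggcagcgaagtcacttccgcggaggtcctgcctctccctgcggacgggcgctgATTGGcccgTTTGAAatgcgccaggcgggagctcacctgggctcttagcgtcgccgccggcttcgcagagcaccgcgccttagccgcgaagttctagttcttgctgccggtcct

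NUF2 and NDC80, which pair in the outer kinetochore complex that grips microtubules, each held 1 or more of the first element and none of the second. CENPF held 4 CCAAT boxes and KIF23 held 1. Other members broke this contrast. ANLN, the lowest on CpG-ODN 2, held 2 of the first element and 0 CCAAT boxes, as NDC80 did. ASPM, at 0.66 on CpG-ODN 1, held 4 CCAAT boxes. Whether the elements go with the values on the arrays was not tested. Members without TTTGAA or TTCGAA in any window were AURKB, CCNA2, CCNB1, CENPE, KIF20A, KIF2C and PTTG1. No match says only that these letters are not in these windows.

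The cyclin-CDK engine and its activators counted 7 genes, 5 with a lower mean, and their median was −0.04. With median scaling it was 0.058, with 2 of 7 lower, beside a median of 0.040 over all genes under that scaling. CDK1, the kinase that starts mitosis, had log2 intensities of 12.45, 12.21 and 12.35 on CpG-ODN arrays 1 to 3, against 12.55, 12.52 and 12.33 on saline arrays 1 to 3. The groups overlapped, and its log2 fold change was −0.13 ± 0.16 (SE, 3 arrays in each group), with −0.11 on its other probe. CCNB1, which encodes cyclin B1, its partner at mitotic entry, had 11.06, 10.44 and 10.82 with CpG-ODN, against 10.60, 10.83 and 10.70 with saline. CpG-ODN 1 was the highest and CpG-ODN 2 the lowest of the 6 arrays, and the fold change was 0.06 ± 0.20. Cyclin B2 (CCNB2) lay at −0.01 and cyclin A2 (CCNA2), which acts in S and G2 phase, at −0.17.

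The CDC25 phosphatases remove the inhibitory phosphates from CDK1. CDC25C had 8.09, 8.48 and 8.60 on CpG-ODN arrays 1 to 3 at its brightest probe, against 8.14, 8.28 and 8.11 on saline arrays 1 to 3. Arrays 2 and 3 of CpG-ODN were above every saline array and array 1 below them all, for a fold change of 0.22 ± 0.18. Of the other probes of CDC25C, 1 gave 0.14 and 1 gave −0.12, the last with 7.22, 7.92 and 7.71 with CpG-ODN, against 7.76, 7.59 and 7.86 with saline. CDC25B lay at −0.04 ± 0.20. FOXM1, the transcription factor that switches on many genes of this list, lay at −0.10 ± 0.20, with 0.09 on the dimmer probe.

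Aurora and Polo kinases and survivin had lower means in all 4 genes, though none passed the test, with a median of −0.14 in this group. With median scaling 3 of the 4 were lower, AURKB being the exception, and the median was −0.072 (0.040 over all genes). BIRC5 encodes survivin, a subunit of the chromosomal passenger complex that corrects faulty attachments. Its brightest probe had 11.72, 11.79 and 11.95 with CpG-ODN, against 12.01, 12.09 and 12.16 with saline. Each CpG-ODN array was below each saline array, by a narrow margin between CpG-ODN 3 and saline 1, and the fold change was −0.27 ± 0.16 (95% interval −0.63 to 0.10). Its dimmer probe did not share this, with 0.01 and overlapping groups. AURKA, the Aurora kinase of spindle poles, lay at −0.21 ± 0.16 and at −0.19 on its other probe. AURKB, the kinase that survivin works with, lay at −0.04, and PLK1, the Polo-like kinase of mitotic entry and centrosome maturation, at −0.07.

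Among spindle checkpoint genes the CpG-ODN arrays pulled apart, and 3 of 5 genes had a lower mean. Their median was −0.04, and it was 0.15 without CpG-ODN 2 and 0.023 with median scaling (0.040 over all genes). MAD2L1 encodes MAD2, which inhibits CDC20 at unattached kinetochores. Its brightest probe had 12.28, 11.63 and 11.70 with CpG-ODN, against 11.98, 11.91 and 11.62 with saline. CpG-ODN 1 was the highest of the 6 arrays and the other pair lay within the saline range, so that the fold change was 0.03 ± 0.21. Its second probe gave 0.28 ± 0.22, with 10.03, 9.45 and 9.22, against 9.38, 9.36 and 9.11. The checkpoint kinases BUB1 and TTK followed the order of arrays of the brightest MAD2L1 probe, which its second probe did not share. Relative to the saline mean, BUB1 stood at 0.39, −0.40 and −0.10 on CpG-ODN arrays 1 to 3. TTK, also known as MPS1, stood at 0.35, −0.53 and −0.28. Their fold changes were −0.04 ± 0.22 and −0.15 ± 0.23. BUB1B, which encodes the checkpoint protein BUBR1, lay at 0.07 ± 0.18.

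BUB3, the adaptor that brings BUB1 and BUBR1 to kinetochores, gave opposite readings on its 4 probes. The brightest had 13.14, 13.49 and 13.71 with CpG-ODN, against 13.71, 13.58 and 13.55 with saline, and a fold change of −0.17 ± 0.19. On CpG-ODN 1 it lay 0.48 below the saline mean, while the other 3 probes lay above it there, at 0.61, 0.71 and 0.38. The fold changes of these 3 were 0.09, 0.14 and 0.17. On CpG-ODN 2 and 3 the 4 probes lay between −0.24 and 0.09.

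**Figure D3:**
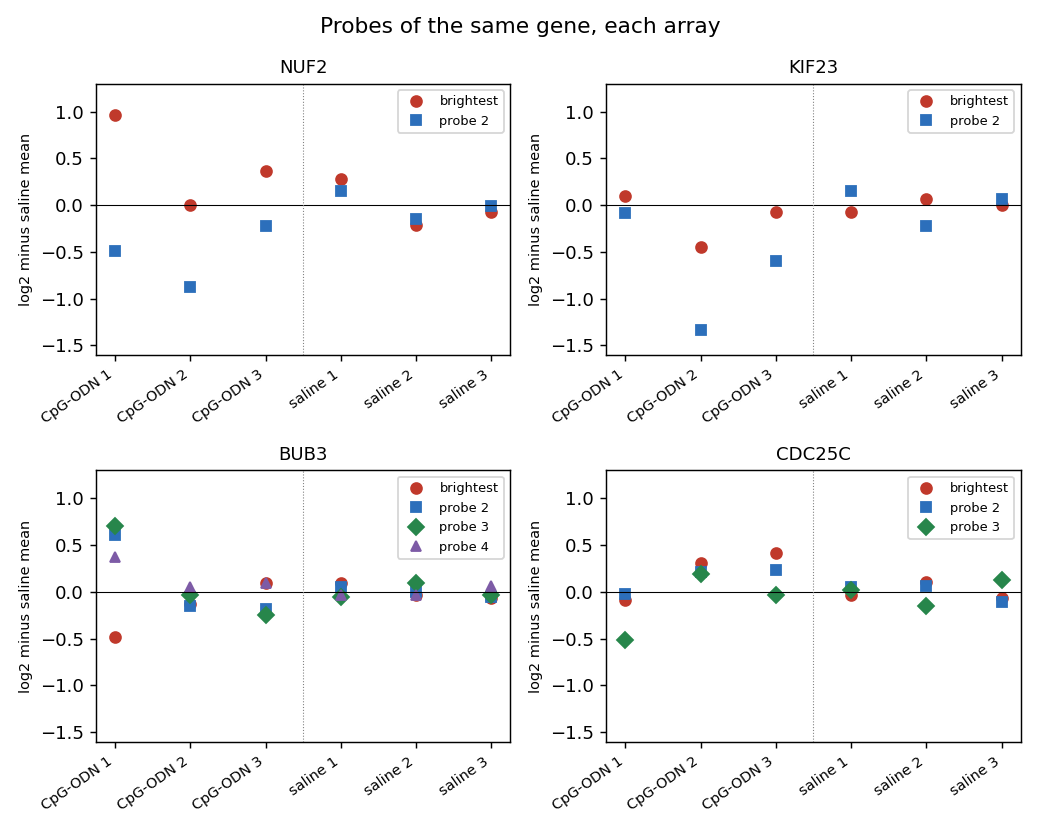
Log2 intensity minus the saline mean (y axis) on CpG-ODN arrays 1 to 3 and saline arrays 1 to 3 (x axis) for each tested probe of NUF2, KIF23, BUB3 and CDC25C. Symbols are single probes, and the probes of a gene lie together on the saline arrays and apart on CpG-ODN 1 for NUF2 (0.96 and −0.49) and BUB3 (−0.48 against 0.38 to 0.71).

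Kinetochore genes held both the highest and the lowest fold changes of the list at the brightest probes, and 3 of the 5 had a lower mean. Their median was −0.14 and their mean 0.01, which differ in sign. NUF2 had 9.32, 8.35 and 8.72 at its brightest probe with CpG-ODN, against 8.63, 8.14 and 8.28 with saline. CpG-ODN 1 and 3 were above all saline arrays and CpG-ODN 2 was within their range, and the fold change was 0.44 ± 0.26 (95% interval −0.13 to 1.02). The second tested probe of NUF2, which the annotation assigns to another transcript record, turned the other way, with 6.51, 6.13 and 6.79 against 7.16, 6.86 and 6.998. All CpG-ODN arrays were below all saline arrays, at a signal not far above the lowest detected one (5.50 to 5.67 on the 6 arrays), and the fold change was −0.53 ± 0.20 (limma adjusted p = 1.00). It was −0.28 without background correction. The direction of NUF2 therefore depends on the probe, by 0.97 log2 units, the widest gap among the 16 members with several tested probes. Of those 16 genes 8 had probes on both sides of 0 (50%), against 46.2% of the 2814 genes with several tested probes.

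NDC80, the partner of NUF2, showed the same high value on 1 array and is given array by array for that reason, chosen after its values were seen. It had 10.60, 9.55 and 9.81 with CpG-ODN, against 9.95, 9.66 and 9.55 with saline. CpG-ODN 1 lay 0.87 above the saline mean and CpG-ODN 2 lay 0.17 below it, so the groups overlapped and the fold change was 0.26 ± 0.27. CENPF, a large protein of the outer kinetochore, lay at the other end with −0.34 ± 0.17 (95% interval −0.72 to 0.05). It was 0.38, 0.48 and 0.15 below the saline mean on CpG-ODN arrays 1 to 3. CENPE, a kinesin of the kinetochore, lay at −0.14 and at −0.23 on its other probe. CENPA, the histone H3 variant that marks the centromere, lay at −0.17 and at 0.05 on its other probe.

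Spindle motors and microtubule binders had a median of −0.08, with 6 of 7 genes at a lower mean. Without CpG-ODN 2 the median was 0.080, with 2 of 7 lower, and with median scaling it was −0.0036, with 4 lower (0.040 over all genes). TPX2, which activates AURKA and builds microtubules around chromosomes, had 10.11, 9.94 and 10.23 with CpG-ODN, against 10.44, 10.36 and 10.47 with saline. Each CpG-ODN array was below each saline array, and the fold change was −0.33 ± 0.16 (limma adjusted p = 1.00). KIF11, the motor that pushes spindle poles apart, spread widely: relative to the saline mean it stood at 0.61, −0.51 and −0.27 on CpG-ODN arrays 1 to 3, while the saline arrays had a standard deviation of 0.06. Its fold change was −0.06 ± 0.27, with −0.15 on the other probe. ASPM, a spindle pole protein, stood at 0.66, −0.30 and −0.17 and had a fold change of 0.06 ± 0.26. The microtubule depolymerase gene KIF2C lay at −0.22, the microtubule bundler NUSAP1 at −0.10, the spindle assembly factor DLGAP5 at −0.08 and HMMR, a hyaluronan receptor that also binds spindle microtubules, at −0.06.

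Genes of the spindle midzone and of cytokinesis had lower means in 5 of 5 cases, between −0.16 and −0.03. Without CpG-ODN 2 the count was 1 of 5, with a median of 0.024, and with median scaling it was 4 of 5. KIF23 encodes MKLP1, a kinesin of the centralspindlin complex that sets the cleavage plane. Its brightest probe had 10.78, 10.24 and 10.61 with CpG-ODN, against 10.61, 10.75 and 10.69 with saline, and a fold change of −0.14 ± 0.19. The dimmer probe had 6.94, 5.69 and 6.43, against 7.18, 6.81 and 7.09, with the low values on CpG-ODN 2 and 3 and an overlap at CpG-ODN 1. It gave the lowest fold change of any member probe, −0.67 ± 0.29 (95% interval −1.33 to −0.02). Its value on CpG-ODN 2 was close to the lowest detected signal of that array (5.67), and the fold change was −0.34 both without CpG-ODN 2 and without background correction. ANLN, which encodes the contractile ring protein anillin, stood at 0.43, −0.61 and −0.25 on CpG-ODN arrays 1 to 3, relative to the saline mean, for a fold change of −0.14 ± 0.25. The midzone bundler PRC1 lay at −0.16, the motor gene KIF20A at −0.03 and ECT2, the exchange factor that activates RhoA at the cleavage furrow, at −0.12.

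The 3 genes of anaphase promotion had a median of −0.04, which was 0.12 with median scaling (0.040 over all genes) and 0.030 without CpG-ODN 1, and their median standard deviation among CpG-ODN arrays was 0.15. CDC20, the activator of the anaphase-promoting complex, had 13.29, 13.41 and 13.42 with CpG-ODN, against 13.71, 13.38 and 13.59 with saline. Saline 2 lay below CpG-ODN 2 and 3, so the groups overlapped, and the fold change was −0.19 ± 0.17. UBE2C, the ubiquitin-conjugating enzyme of that complex, lay at −0.04. PTTG1, which encodes securin, the inhibitor of separase, lay at 0.13 ± 0.17 and at 0.11 on its other probe.

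MKI67 and TOP2A, a pair of widely used proliferation markers, went opposite ways across the CpG-ODN arrays. MKI67, which encodes the chromosome surface protein Ki-67, had 8.13, 8.94 and 8.54 with CpG-ODN, against 8.28, 8.62 and 8.66 with saline. CpG-ODN 1 was the lowest of the 6 arrays and CpG-ODN 2 the highest, and the fold change was 0.01 ± 0.23 (95% interval −0.50 to 0.53). TOP2A, the topoisomerase that untangles sister chromatids, had 11.54, 10.96 and 11.35, against 11.46, 11.22 and 11.32. For this gene CpG-ODN 1 was the highest and CpG-ODN 2 the lowest, with a fold change of −0.05 ± 0.19. For both markers the groups overlapped.

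**Figure D4:**
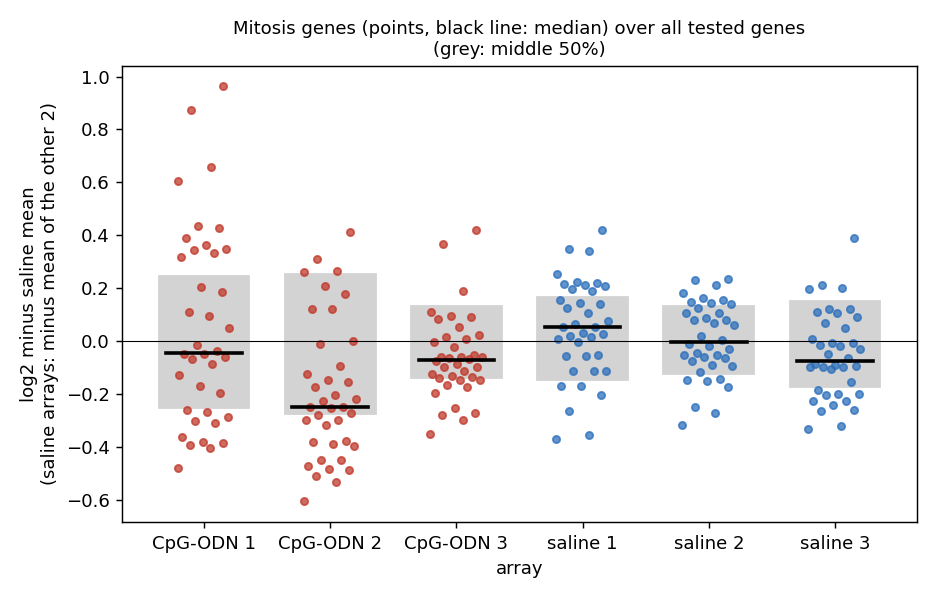
Log2 intensity of each of the 38 genes (points, brightest probe) on CpG-ODN arrays 1 to 3 minus the mean of the 3 saline arrays, and on saline arrays 1 to 3 minus the mean of the other 2 saline arrays. Black lines are medians of the 38 genes and grey boxes the middle 50% of all 11040 genes. The median is lowest on CpG-ODN 2 (−0.25), and the points spread widest on CpG-ODN 1.

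Taken array by array, the 38 genes lay lowest on CpG-ODN 2. Relative to the saline mean their median was −0.044, −0.25 and −0.072 on CpG-ODN arrays 1 to 3, against −0.0069, −0.011 and −0.0022 over all genes. Saline arrays 1 to 3, each set against the other 2 saline arrays, had member medians of 0.052, −0.0016 and −0.075. The saline medians rest on the mean of 2 arrays and the CpG-ODN medians on the mean of 3. That difference widens the saline values, so CpG-ODN 3 is not ranked against saline 3. CpG-ODN 2 was the array that stood out. With median scaling the member medians on CpG-ODN arrays 1 to 3 were 0.032, −0.083 and −0.060, against −0.0091, 0.11 and 0.014 over all genes. On CpG-ODN 2, the array with the lowest upper quartile of intensity, 24 of the 38 genes were below all 3 saline arrays and 7 above, where the shares over all genes were 35.9% and 34.6%. The part of the array's intensity in this was not tested.

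On CpG-ODN 1 the genes split in both directions, as all tested genes did. There 16 genes (42.1%) were above all saline arrays and 15 (39.5%) below, where the background shares were 33.2% and 35.3%. Those above were CCNB1, CCNB2, the checkpoint genes BUB1, BUB1B, MAD2L1 and TTK, the kinetochore genes NDC80 and NUF2, the spindle genes KIF11, DLGAP5, HMMR and ASPM, the cytokinesis genes KIF23, ANLN and ECT2, and TOP2A. Those below were CDC25B, CDC25C, FOXM1, AURKA, AURKB, BIRC5, BUB3, CENPA, CENPF, TPX2, PRC1, CDC20, UBE2C, PTTG1 and MKI67. On CpG-ODN 3, where the genes spread least, 3 genes were above all saline arrays (CDC25C, NUF2 and PTTG1) and 11 below, where the shares over all genes were 24.7% and 24.8%.

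**Figure D5:**
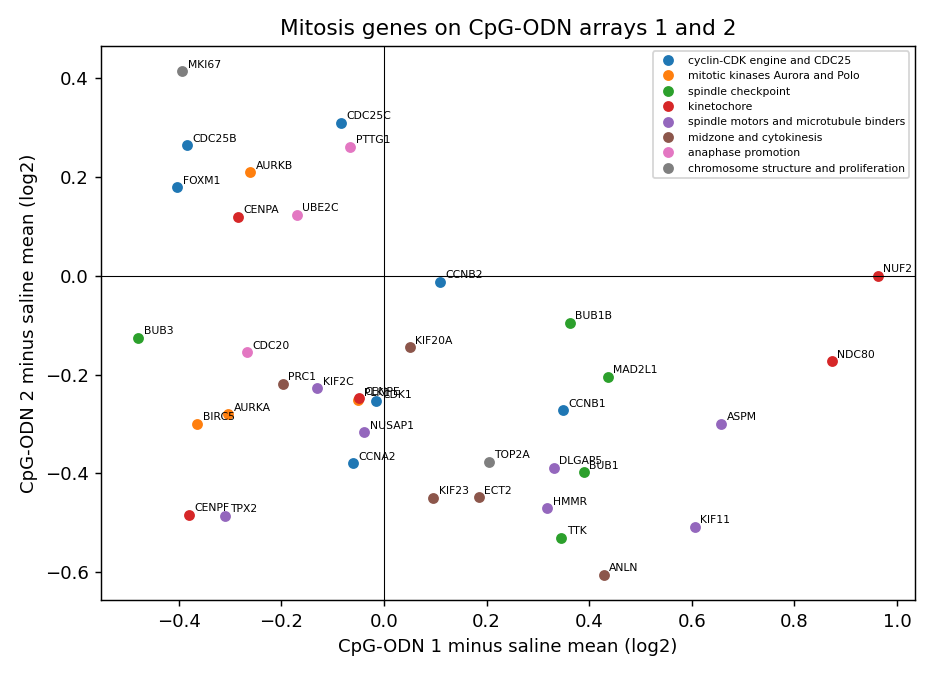
Log2 intensity minus the saline mean on CpG-ODN 1 (x axis) and on CpG-ODN 2 (y axis) for the brightest probe of each of the 38 genes, coloured by role. Of the genes 16 lie at lower right, above saline on CpG-ODN 1 and below on CpG-ODN 2, and 8 lie at upper left, MKI67 among them.

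The 2 arrays of the same treatment thus disagreed in sign for most of these genes, as they did for most of all tested genes. In 16 of 38 genes CpG-ODN 1 was above and CpG-ODN 2 below the saline mean, where the share over all genes was 27.9%, and in 8 the order was the reverse, where it was 27.5%. The 8 were CDC25B, CDC25C, FOXM1, AURKB, CENPA, UBE2C, PTTG1 and MKI67. In 10 genes all 3 CpG-ODN arrays were below the saline mean, where the background was 14.6%: CDK1, CCNA2, AURKA, BIRC5, CENPE, CENPF, TPX2, KIF2C, PRC1 and CDC20. NUF2 was the single gene above it on all 3, where the background was 13.6%. On CpG-ODN 2 it was above by only 0.00015, and its second tested probe lay below the saline mean on all 3. The standard deviation was larger among CpG-ODN than among saline arrays in 33 of 38 genes, where the share over all genes was 74.9%. Its median was 0.26 with CpG-ODN and 0.12 with saline, against 0.26 and 0.15 over all genes. These shares describe the arrays, and no test of the list was made.

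Other genes of mitosis showed no call either. A second list held 118 genes of the kinetochore, checkpoint, cohesin, motors, cytokinesis, mitotic kinases and phosphatases, anaphase-promoting complex and condensin, of which 113 had a probe and 109 were tested on 160 probes. In limma 0 of these probes passed in either direction, where the background was 0%, and 2 had an unadjusted p under 0.05, where it was 3.58%. Their median log2 fold change was −0.034, with 62 genes lower and 47 higher, and it was 0.034 without CpG-ODN 2. With median scaling it was 0.026, beside 0.040 over all genes. By array the median was 0.022, −0.11 and 0.0015 on CpG-ODN arrays 1 to 3. Condensin subunits had the lowest median of its parts (−0.14 over 7 genes), with −0.33 on CpG-ODN 2, and other kinetochore and centromere genes the highest (0.061 over 31 genes), where the mean was −0.015.

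The 2 probes of the second list with an unadjusted p under 0.05 were dimmer probes of their genes, named after their values were seen. ENSA, which encodes endosulfine alpha, a phosphatase inhibitor of mitotic entry, had 7.95, 7.66 and 6.997 with CpG-ODN, against 6.95, 7.09 and 6.62 with saline, and the cohesin gene STAG2 had 5.72, 5.74 and 6.07, against 6.06, 6.94 and 6.21. The groups overlapped in both, and their fold changes were 0.65 ± 0.26 and −0.56 ± 0.25 (limma adjusted p = 1.00). Among brightest probes the smallest p in each direction belonged to the 4 genes below, and none passed. ZW10, a checkpoint protein that recruits dynein to kinetochores, had 10.58, 10.13 and 10.67 with CpG-ODN, against 11.18, 10.68 and 10.75 with saline. Each CpG-ODN array lay below each saline array, by a very narrow margin between CpG-ODN 3 and saline 2, and the fold change was −0.40 ± 0.21. Of the 160 probes of this list 9 lay wholly below and 2 wholly above, where the background shares were 5.03% and 4.32%. FZR1, the late mitotic activator of the anaphase-promoting complex, was detected on 2 of 3 CpG-ODN arrays and on all 3 saline arrays, at 5.53 to 5.79 with CpG-ODN, against 6.00 to 6.02 with saline, and its fitted difference was −0.32 ± 0.16 at this level near background. SKA2, a kinetochore protein, lay at 0.29 ± 0.18 and ANAPC10, a subunit of the anaphase-promoting complex, at 0.30 ± 0.19.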

How the data were processed

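Each probe had a linear intensity that the file headers call non-normalized, and the deposited table also held its detection p-value. BeadStudio is named in the submitters' processing notes. A second deposited table held normalized intensities, for which no method is stated; quantile normalization of the first table came within 0.0218 log2 units of it. Intensities were background-corrected and quantile normalized with neqc of limma 3.58.1 in R 4.3.3 (offset 16, with control levels inferred from the detection values). Probes detected at p under 0.05 on 3 or more of 6 arrays, 17950 in all, were fitted with lmFit and eBayes, group as the sole term, and adjusted by Benjamini-Hochberg over all of them. The fit was tested on simulated data. Fold changes are CpG-ODN minus saline in log2 units with the SE of the fit; the offset draws those of dim probes towards 0. Of the probes 28098 had 1 gene symbol, 13 several and 20692 none. The tested probe of highest mean stands for a gene, and levels are not compared between probes. The number of arrays limits the precision. The members and lists were chosen with earlier results of these data known. Every member is named; values on each array are given for MKI67, TOP2A, CDK1 and CCNB1, the member with the smallest p in each role group, members whose probes differ in sign by over 0.3, and members beyond 1.3-fold. BUB1, TTK, CENPF, NDC80, KIF11, ASPM and ANLN are also given by array, chosen after their values were seen. Of the second list the 2 genes with the smallest p in each direction among brightest probes are named. No set test was run. The alternatives were other normalizations, offset, filters, array weights, a replicate block, each array left out and each CpG-ODN array alone. The values of the role groups under median scaling or without an array were added after seeing the data.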

Additional observations from a re-analysis of the deposited data

How the results depend on the processing

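The count of called probes was 0 over all probes and 0 among the members in each of the 18 alternatives for which it was computed. With array weights (0.257, 0.349 and 4.71 for CpG-ODN arrays 1 to 3) the smallest limma adjusted p of a member was 0.136. Over all probes it was 0.0544 in that fit, with 2903 probes at an unadjusted p under 0.05. The count over all probes at an unadjusted p under 0.05 ran from 366 without saline 3 to 3731 with CpG-ODN 2 alone, against 643; the fits with 1 CpG-ODN array take their spread from saline alone. The median of the member genes was −0.25 with CpG-ODN 2 alone, −0.096 with array weights, −0.0010 with median scaling (0.040 over all genes) and −0.057 when a gene's probes were averaged, and it ran from −0.16 to 0.0093 with 1 array left out. The cause of these shifts was not tested. In 4 alternatives the fold changes equal the reported ones by construction. Of the 798 values of single member probes in the others, 123 turned sign and 0 were called; 50 of the turns came from fits with 1 CpG-ODN array.

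Arrays with the same replicate number had deviations that correlated at 0.341, 0.0499 and 0.126, and those with unlike numbers at −0.307 to 0.243. The numbers are not stated to pair samples, and they were not taken as pairs for that reason. With the replicate block the count of called probes was 0, over all probes (893 at an unadjusted p under 0.05) and among the members. Its fold changes, and so the median of −0.075, are those without the block by construction. The chip as a block could not be fitted, since the sources used here name none.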
